A study of Mus musculus and Homo sapiens with 8 samples.

Results

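The Apobec genes encode cytidine deaminases, enzymes that turn cytidine into uridine in RNA or DNA. A1cf encodes an RNA-binding cofactor of one of them. The deposited expression table of small-intestinal crypts lists 13359 distinct genes, and 4 of them are treated here: Apobec1, Apobec2, Apobec3 and A1cf. They were taken by gene symbol. They form a gene family with its cofactor and were selected on their FPKM values in this comparison, so their differences between the groups are given as a description, with an error and no p-value. Each has 1 distinct entry (a repeat of the Apobec2 entry with identical values was dropped).

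Apobec1 is the catalytic subunit of the enterocyte machinery that edits the messenger RNA of apolipoprotein B, creating a stop codon, so that the mouse intestine makes the short apoB48 that is packed into chylomicrons. A1cf and the related RNA-binding protein Rbm47 can each bind the apoB transcript and let Apobec1 act on it. Apobec2 is a family member best known from skeletal and heart muscle, for which no editing activity has been firmly established. Apobec3 is the mouse's only gene of a subfamily that restricts retroviruses, and it is strongly expressed in lymphoid cells. Gene-level RNA values show how much of each transcript was present and hold no information on editing itself.

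The libraries came from 2 groups of 2-month-old C57BL/6 mice, untreated, all with the Apc Min allele, which truncates a Wnt pathway regulator and gives intestinal adenomas. In the libraries labelled knockout, Zmynd8, a chromatin reader, was also deleted in the intestinal epithelium (genotype label APCmin+; Zmynd8IEC-/-). The controls carried Apc Min alone (APCmin+). There were 2 libraries a group, and each pooled RNA of 3 mice, per the series' design text. The labels name neither the Cre line nor the deleted exons.

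The values rest on 46551218 and 47990019 reads for replicates 1 and 2 of the libraries labelled knockout, and on 44718091 and 48778712 reads for the controls. No loss of Zmynd8 RNA was seen where the labels say knockout: its level was 7.30 and 7.65 FPKM there (reads scaled by a gene length and a library total) and 6.94 and 4.73 FPKM in the controls. The direction of every difference therefore rests on the labels alone. All 8 general epithelial markers and all 11 markers of the crypt base and Paneth cells were listed, with Epcam between 976 and 1315 FPKM. No label gives a litter or a day for a pool, and the spread that p-values measure here is the one between pools, which may be technical. Within a library a lower level can come from fewer cells of a type or from less RNA per cell, and bulk values cannot tell these apart.

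The stretches around the start sites of Apobec2, Apobec1 and A1cf are shown because these are the 3 genes with higher values in the libraries labelled knockout, and that of Apobec3 because it holds a word the others lack. They come from RefSeq on GRCm38.p6, the assembly also called mm10, and are written 5′ to 3′ on the gene's own strand. Each runs from 250 bases before the RefSeq start to 50 after it, and all distances are from that start. The spans given below for Apobec1 and Apobec3 begin farther upstream in the deposited data, so these windows lie wholly within them. For A1cf the deposited start falls inside the window, before the RefSeq start. Capitals mark every match, on either strand, to 4 words chosen after the sequences were read: TATAAA (the core of a TATA box), CAGCTG (an E-box), CAAAGTNCA (core of sites bound by the enterocyte and liver factor HNF4) and GAAANNGAA (most of the core of the interferon-stimulated response element), N being any base.

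Apobec2, chr17:48432679-48432978, minus strand: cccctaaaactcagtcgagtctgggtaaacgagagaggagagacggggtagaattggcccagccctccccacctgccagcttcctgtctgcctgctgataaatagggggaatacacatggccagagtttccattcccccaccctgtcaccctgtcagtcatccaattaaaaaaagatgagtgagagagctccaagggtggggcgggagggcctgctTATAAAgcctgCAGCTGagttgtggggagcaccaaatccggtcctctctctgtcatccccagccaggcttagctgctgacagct
Apobec1, chr6:122602395-122602694, minus strand: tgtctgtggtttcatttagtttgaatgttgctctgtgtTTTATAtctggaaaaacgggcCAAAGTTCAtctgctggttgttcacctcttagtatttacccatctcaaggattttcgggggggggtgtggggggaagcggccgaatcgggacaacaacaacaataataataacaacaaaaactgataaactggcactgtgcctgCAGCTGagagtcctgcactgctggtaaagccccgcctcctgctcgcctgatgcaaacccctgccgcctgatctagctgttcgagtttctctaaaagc
A1cf, chr19:31868563-31868862, plus strand: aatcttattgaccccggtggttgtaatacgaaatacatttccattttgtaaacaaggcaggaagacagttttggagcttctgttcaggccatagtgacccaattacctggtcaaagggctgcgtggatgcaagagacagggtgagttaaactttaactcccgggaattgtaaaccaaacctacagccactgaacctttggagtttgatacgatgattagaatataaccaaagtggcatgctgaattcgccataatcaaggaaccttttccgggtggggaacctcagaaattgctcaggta
Apobec3, chr15:79892158-79892457, plus strand: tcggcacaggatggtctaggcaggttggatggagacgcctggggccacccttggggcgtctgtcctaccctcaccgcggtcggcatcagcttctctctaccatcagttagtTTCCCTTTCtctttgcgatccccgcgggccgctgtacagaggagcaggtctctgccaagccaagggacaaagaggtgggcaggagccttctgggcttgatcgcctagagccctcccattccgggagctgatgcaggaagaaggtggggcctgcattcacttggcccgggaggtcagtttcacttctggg

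In Apobec2 the TATA box begins 34 bases before the start site and the E-box 23 bases before it. Apobec1 has the same E-box 47 bases before its start, and a word of 13 bases around it, gcctgcagctgag, is shared by both genes and is the longest shared by any pair of the 4. Apobec1 also has the HNF4-type word, 191 bases before its start, and a TATA word on the opposite strand. The window of A1cf held none of the 4 words. In Apobec3 the interferon-type word begins 139 bases before the first of its 2 RefSeq start sites, and the second window held only a TATA word on the opposite strand. Of 32851 RefSeq windows of 300 bases, 13.6% hold the TATA word, 16.3% the E-box, 1.41% the HNF4-type word and 8.56% the interferon-type word. The matches are letters in these windows, not shown sites of binding.

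Apobec1 (Entrez gene 11810, chromosome 6, 122577792 to 122603027, minus strand) was higher in the libraries labelled knockout. It stood at 15.3 and 16.4 FPKM there, from 2396 and 2649 reads, and at 11.4 and 9.60 FPKM in the controls, from 1723 and 1578 reads. Both libraries labelled knockout lay above both controls. The means were 15.8 ± 0.782 FPKM in the libraries labelled knockout and 10.5 ± 1.30 FPKM in the controls (SD, n = 2 each), a log2 fold change of 0.55 (SE 0.12) on log2(FPKM + 1), the scale of all fold changes here.

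A1cf (Entrez gene 69865, chromosome 19, 31868755 to 31952365, plus strand) was the most abundant of the 4 by length-scaled level in every library. It had 27.2 and 26.8 FPKM in the libraries labelled knockout, against 21.9 and 20.8 FPKM in the controls, from between 6651 and 8745 reads. Its groups did not overlap either, and its replicates lay close together, with means of 27.0 ± 0.273 and 21.3 ± 0.781 FPKM in the libraries labelled knockout and the controls (SD, n = 2 each). The log2 fold change was 0.33 (SE 0.09), smaller than that of Apobec1. RefSeq places a pseudogene, Gm19241, within the span of A1cf; it is not among the genes analysed here.

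Apobec2 (Entrez gene 11811, chromosome 17, 48419231 to 48432728, minus strand) had by far the largest difference of the 4. It reached 17.5 and 26.0 FPKM in the libraries labelled knockout, from 991 and 1521 reads, and stood at 2.48 and 1.57 FPKM in the controls, from 135 and 93 reads. The groups lay far apart, with means of 21.7 ± 6.04 and 2.02 ± 0.646 FPKM in the libraries labelled knockout and the controls (SD, n = 2 each). The ratio of the means was 10.8, and the log2 fold change was 2.90 (SE 0.25). In order of fold change it was number 9 from the top among 12948 genes tested. RefSeq also has a noncoding gene, Gm30283, within its span, which is not analysed here.

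Apobec2 also varied within the groups by more than counting error. Exact Poisson 95% intervals, which cover counting error only, ran from 16.4 to 18.6 FPKM for replicate 1 and from 24.7 to 27.4 FPKM for replicate 2 of the libraries labelled knockout. In the controls they ran from 2.08 to 2.93 FPKM for replicate 1 and from 1.26 to 1.92 FPKM for replicate 2. The intervals of a group's replicates did not overlap in either group. The log2 difference between its replicates was 0.55 in the libraries labelled knockout, larger than that of 95.8% of genes tested, and 0.44 in the controls, larger than that of 84.9%. A1cf was at the other end, with replicate differences of 0.02 and 0.07 in the libraries labelled knockout and the controls, larger than those of 9.34% and 22.5% of genes.

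Apobec3 (Entrez gene 80287, chromosome 15, 79892058 to 79918218, plus strand) was the only one of the 4 with lower values in the libraries labelled knockout. It stood at 5.34 and 5.08 FPKM there, and at 7.96 and 5.57 FPKM in the controls, from 2034 to 2971 reads a library. The groups did not overlap, but control replicate 2 lay close to replicate 1 of the libraries labelled knockout, and control replicate 1 stood above the other 3 libraries. The means were 5.21 ± 0.184 FPKM in the libraries labelled knockout and 6.77 ± 1.69 FPKM in the controls (SD, n = 2 each), a log2 fold change of -0.31 (SE 0.18). Without control replicate 1 it was -0.08, and after median-ratio scaling the groups overlapped, at a log2 fold change of -0.15. Apobec3 overlaps 2 listed genes on the opposite strand, Cbx7 and the noncoding D730005E14Rik, and since any use of strand in counting is not given, its value is uncertain.

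**Figure D1:**
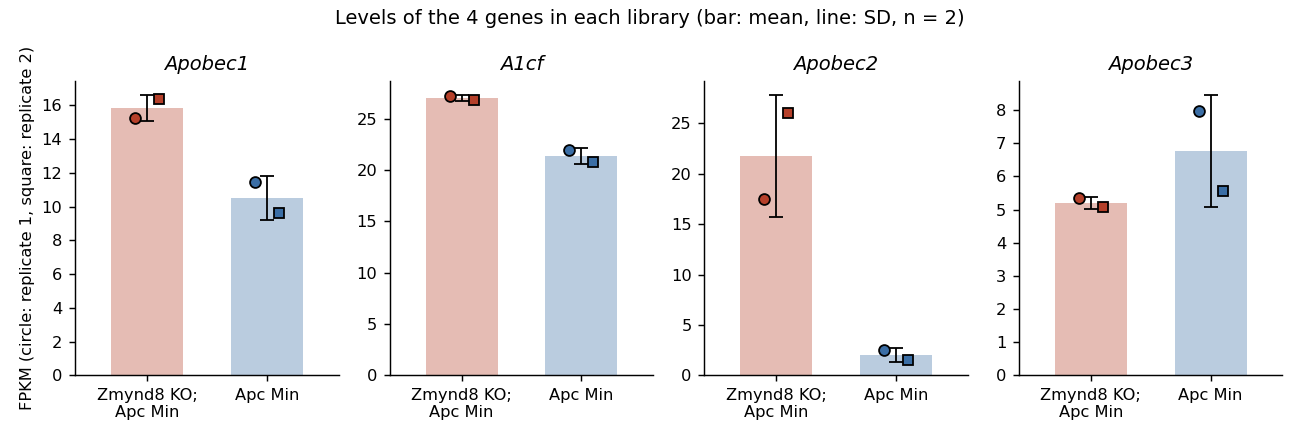
Level in FPKM (vertical axis, from 0, a scale for each gene) of Apobec1, A1cf, Apobec2 and Apobec3 in the libraries labelled knockout (red, left) and the Apc Min controls (blue, right); bars are means, lines are SD over 2 libraries, and circles and squares are replicates 1 and 2. Apobec2 averages 21.7 FPKM in the libraries labelled knockout and 2.02 FPKM in the controls, while control replicate 1 alone sets Apobec3 apart.

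Both libraries labelled knockout lay above both controls for 14.9% of genes tested and below both for 48.5%. For 3 of the 4 genes they lay above and for 1 below, a count that the choice of the genes used and from which nothing is read. After median-ratio scaling the shares of all genes were 28.2% and 28.0%, and Apobec1, A1cf and Apobec2 still lay above. Over all genes tested the median fold change was -0.15 on the log2 scale. Relative to it the fold changes were 3.06 for Apobec2, 0.70 for Apobec1, 0.48 for A1cf and -0.15 for Apobec3.

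The order of the levels differed between the groups. In the libraries labelled knockout the means ran from A1cf at 27.0 FPKM through Apobec2 at 21.7 and Apobec1 at 15.8 to Apobec3 at 5.21 FPKM. In the controls they ran from A1cf at 21.3 FPKM through Apobec1 at 10.5 and Apobec3 at 6.77 to Apobec2 at 2.02 FPKM. The next values are of the libraries labelled knockout. The gaps between the means of A1cf and Apobec2 and of Apobec2 and Apobec1 there were each smaller than the SD of Apobec2. Within each library labelled knockout the order was nonetheless the same. A1cf, Apobec2 and Apobec1 stood at 27.2, 17.5 and 15.3 FPKM in replicate 1 and at 26.8, 26.0 and 16.4 FPKM in replicate 2. Whether these levels differ was not tested. All 13359 listed genes have a mean of at least 1 FPKM in at least 1 group, so shares of listed genes are shares of such genes. Among them Apobec2 lay above 74.7% and 81.8% in the libraries labelled knockout and above 20.7% and 14.5% in the controls. A1cf lay above 82.3% and 82.4% in the libraries labelled knockout and above 77.0% and 77.3% in the controls.

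RNA levels of cofactor and enzyme can be set against each other within a library, because both are scaled by length. Levels of the proteins were not measured. There were 1.78 and 1.64 A1cf per Apobec1 in the libraries labelled knockout, and 1.92 and 2.17 in the controls. The ratio was thus lower in both libraries labelled knockout, with means of 1.71 ± 0.102 there and 2.04 ± 0.177 in the controls (SD, n = 2 each). The other cofactor, Rbm47, kept closer to A1cf. Its ratio to A1cf was 2.44 and 2.47 in the libraries labelled knockout and 2.52 and 2.62 in the controls. Apob RNA was far more abundant than Apobec1 RNA in every library. There were 41.4 and 44.0 Apob per Apobec1 in the libraries labelled knockout and 36.1 and 46.4 in the controls, ranges that overlap. Apobec2 per Apobec1 was 1.14 and 1.59 in the libraries labelled knockout and 0.217 and 0.163 in the controls.

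Of 7 tested genes for proteins reported to bind Apobec1 or the apoB transcript, 5 had negative fold changes and 2 positive ones, where 71.7% of all genes tested were negative and 28.3% positive, so the split of the partners is that of the table. Over the genes tested, 94 of 12948 genes passed limma's adjusted threshold of 0.05, or 0.726%. In the libraries labelled knockout 77 of them were higher (0.595%) and 17 lower (0.131%). Median-ratio scaling gave 60 higher and 4 lower, leaving out either library labelled knockout gave 0 in all, and leaving out control replicate 2 gave 616. Of the 7 partners limma called 0 (0 also with voom; 1 higher and 4 lower at an unadjusted p under 0.05). At that unadjusted level stood 26.6% of all genes tested, 7.49% higher and 19.1% lower, the shares against which such counts of the other lists are read too. The partners' median log2 fold change was -0.41, against -0.15 over all genes, but -0.24 with median-ratio scaling. Rbm47 had 66.4 and 66.4 FPKM in the libraries labelled knockout and 55.1 and 54.4 FPKM in the controls (0.27, SE 0.09, limma adjusted p = 0.155). Syncrip, an RNA-binding protein of the editing complex, had 8.49 and 7.79 FPKM in the libraries labelled knockout and 12.3 and 10.1 FPKM in the controls (-0.41, SE 0.13, limma adjusted p = 0.142). The nuclear RNA-binding proteins Hnrnpab and Hnrnpr gave -0.42 and -0.48, neither past the threshold. Celf2 was not analysed here.

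Genes for the assembly of apoB into lipoproteins were compared next, and none of the 17 tested passed limma's adjusted threshold. Apob itself had 632 and 720 FPKM in the libraries labelled knockout and 412 and 446 FPKM in the controls (0.65, SE 0.13, limma adjusted p = 0.0935). Mttp, the microsomal triglyceride transfer protein that lipidates apoB, had 587 and 721 FPKM in the libraries labelled knockout and 306 and 303 FPKM in the controls (1.09, SE 0.15, limma adjusted p = 0.0586). The chylomicron protein gene Apoc3 gave 3.06 (SE 0.33, limma adjusted p = 0.0594) and Sar1b, which carries chylomicrons out of the endoplasmic reticulum, 0.73 (SE 0.11, limma adjusted p = 0.0669). Of the 17 genes of this list tested, 16 had positive fold changes, with Lpcat3 as the exception, and 16 lay above both controls in both libraries labelled knockout, where 14.9% of all genes did. Limma called 0 of them (2 with voom, 15 higher and 0 lower at an unadjusted p under 0.05), and their median was 0.65. The list was chosen with earlier results of these data known, so these counts are a description. In the authors' deposited table Apob had a q-value of 2.81e-12, Mttp one of 1.39e-28 and the cofactor Rbm47 one of 1, where 2.13% of 13359 genes were under 0.05; which test gave these is not stated.

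**Figure D2:**
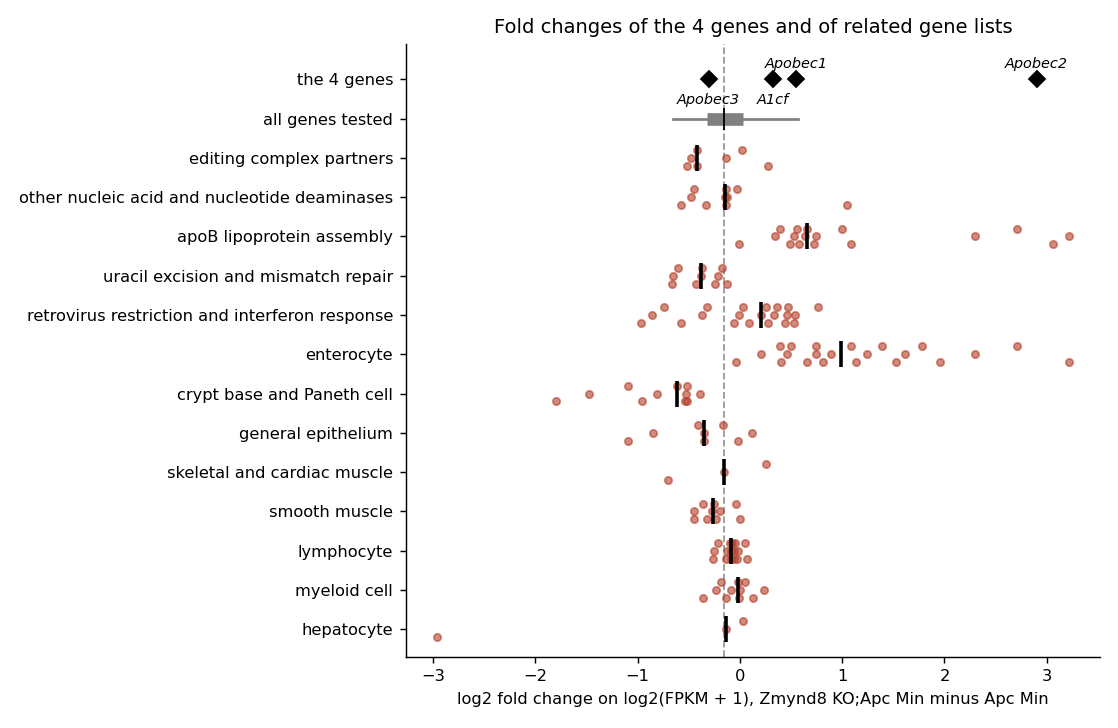
Log2 fold change (horizontal axis) of the 4 genes (black diamonds), of all genes tested (bar from the 25th to the 75th and line from the 5th to the 95th percentile) and of each gene of 13 lists (red points, black tick at the list's median); the dashed line is the median of all genes, -0.15. Apobec2 lies at 2.90, among the highest points of the enterocyte and lipoprotein lists, and Apobec1 at 0.55, A1cf at 0.33 and Apobec3 at -0.31 lie nearer to the middle.

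Among other deaminases, Cda, which converts free cytidine, had 51.4 and 64.1 FPKM in the libraries labelled knockout and 33.3 and 22.2 FPKM in the controls (1.05, SE 0.23, limma adjusted p = 0.106). The adenosine deaminase Adar, which edits double-stranded RNA, had 15.0 and 15.1 FPKM in the libraries labelled knockout and 16.0 and 14.6 FPKM in the controls (-0.03, SE 0.10). The transfer RNA deaminase subunit Adat3 gave -0.57 and the AMP deaminase Ampd2 -0.33. Of 10 tested, 1 had a positive fold change and limma called 0 (0 with voom; 1 higher and 3 lower at an unadjusted p under 0.05), with a median of -0.14, close to that of all genes. The median was -0.23 without replicate 2 of the libraries labelled knockout, -0.35 without control replicate 1, -0.28 without control replicate 2 and -0.04 with median-ratio scaling. The family member Apobec4 was not analysed here. Uracils that a DNA deaminase leaves are removed by Ung, which had 1.81 and 2.23 FPKM in the libraries labelled knockout and 2.92 and 2.93 FPKM in the controls (-0.38, SE 0.14, limma adjusted p = 0.178). Among the other repair genes of smallest p, Apex1 gave -0.60 and Msh6 -0.66. All 10 uracil and mismatch repair genes tested were negative, where 71.7% of all genes were, and limma called 0 (0 with voom; 0 higher and 6 lower at an unadjusted p under 0.05). Their median was -0.38, but -0.24 with median-ratio scaling, -0.21 with quantile normalization and -0.60 at a mean of at least 5 FPKM.

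Apobec3 was set beside other restriction and interferon-response genes. Mov10, a helicase that restricts retroelements, had 32.1 and 34.9 FPKM in the libraries labelled knockout and 21.6 and 24.1 FPKM in the controls (0.53, SE 0.10, limma adjusted p = 0.091). The interferon-induced Ifit3 gave 0.54. Of 21 genes tested, 13 were positive and 8 negative, with a median of 0.21 (0.32 with median-ratio scaling), and limma called 0 (0 with voom; 8 higher and 1 lower at an unadjusted p under 0.05). As with Apobec3, control replicate 1 stood above the other libraries for Ifitm3, with 51.6 and 45.2 FPKM in the libraries labelled knockout and 150 and 52.0 FPKM in the controls. Ifitm3 was named after its values were seen.

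Markers of other cells were measured for the 4 genes. Of 18 markers of skeletal and heart muscle, where Apobec2 is best known, 3 were among the listed genes. Their summed level was 11.1 and 6.10 FPKM in the libraries labelled knockout and 5.69 and 16.7 FPKM in the controls. Acta1 had 5.87 and 0.730 FPKM in the libraries labelled knockout and 2.05 and 9.30 FPKM in the controls. For Mylpf the values were 1.87 and 2.50 FPKM in the libraries labelled knockout and 1.28 and 2.10 FPKM in the controls. The part of muscle cells in the level of Apobec2 was not tested. Limma called 0 of the 3 (0 with voom; 0 in either direction at an unadjusted p under 0.05), and the muscle creatine kinase Ckm had 3.36 and 2.87 FPKM in the libraries labelled knockout and 2.35 and 5.26 FPKM in the controls. All 10 smooth muscle markers were listed, summing to 484 and 394 FPKM in the libraries labelled knockout and to 356 and 783 FPKM in the controls, with 0 called (0 with voom; 0 in either direction at an unadjusted p under 0.05).

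For Apobec3, all 16 lymphocyte markers were listed, with sums of 578 and 405 FPKM in the libraries labelled knockout and 505 and 520 FPKM in the controls. The leukocyte phosphatase Ptprc had 11.9 and 8.72 FPKM in the libraries labelled knockout and 11.4 and 9.51 FPKM in the controls, groups that overlap. All 11 myeloid markers summed to 204 and 174 FPKM in the libraries labelled knockout and to 208 and 194 FPKM in the controls. Limma called 0 genes of either list (0 with voom; 0 lymphocyte and 1 myeloid gene at an unadjusted p under 0.05, that gene lower). Of 8 hepatocyte markers 4 were listed, summing to 5.01 and 1.85 FPKM in the libraries labelled knockout and to 37.0 and 11.0 FPKM in the controls. The control sums rest mostly on Tat (21.4 and 9.42 FPKM) and, in control replicate 1 alone, on Alb (11.7 FPKM, against 0.189 FPKM in control replicate 2). Ttr and Cyp2e1 overlapped between the groups. Limma called 0 of the 3 tested (0 with voom, 1 lower at an unadjusted p under 0.05).

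Enterocyte markers had higher sums where Apobec1, A1cf and Apobec2 were higher. All 22 were listed, with sums of 26991 and 31782 FPKM in the libraries labelled knockout and 16345 and 18282 FPKM in the controls. The sums rest mostly on Apoa1, Fabp2 and Anpep. Apob, Mttp, Apoa1, Apoa4, Fabp1 and Fabp2 are also on the lipoprotein assembly list, so the results of these lists are not separate. Of the 22, 3 rose by limma (Slc2a2, Mme and Treh) and 0 fell (7 called with voom, 18 higher and 0 lower at an unadjusted p under 0.05). This list, like the others, was chosen with earlier results of these data known. Its counts are therefore a description and no independent test of enterocyte genes. The median log2 fold change of the 22 was 0.99. The 11 crypt base and Paneth cell markers went the other way. They summed to 4477 and 6387 FPKM in the libraries labelled knockout and to 7243 and 9553 FPKM in the controls. These sums rest mostly on Lyz1 and Defa24. Lyz1 overlapped between the groups (1581 and 2046 FPKM against 1906 and 2917 FPKM in the controls), and Defa24 did after median-ratio scaling. All 11 had negative fold changes, where 71.7% of all genes tested did, with a median of -0.61. By limma 2 fell (Mmp7 and Itln1) and 0 rose (3 called with voom, 0 higher and 8 lower at an unadjusted p under 0.05). The 5 limma calls among enterocyte, crypt base and Paneth cell markers were lost when either library labelled knockout was left out. The 8 epithelial markers had a median of -0.35 (-0.18 with median-ratio scaling), with 0 called (0 with voom; 0 higher and 4 lower at an unadjusted p under 0.05). Against the 22 enterocyte genes, 1 had a larger fold change than Apobec2 (Fabp1), 16 a larger one than Apobec1 and 20 a larger one than A1cf. The part of the enterocyte share in the differences of the 4 genes was not tested.

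The position of the genes was not used to choose them. Apobec2 lies 1.96 kb from Oard1 on one side and 21.1 kb from Unc5cl on the other. Oard1, which removes ADP-ribose from proteins, had 13.3 and 14.2 FPKM in the libraries labelled knockout and 14.9 and 15.3 FPKM in the controls (-0.13, SE 0.09, limma adjusted p = 0.402). Unc5cl had 12.9 and 16.6 FPKM in the libraries labelled knockout and 14.3 and 15.0 FPKM in the controls (-0.0048, SE 0.14, limma adjusted p = 0.984). The next listed gene, Nfya, a subunit of the CCAAT-binding factor, gave -0.24. The 4 genes tested that start within 500 kb of Apobec2 ranged from -0.24 to -0.0048; 0 of them were positive, where 28.3% of all genes were, and 3 were positive with median-ratio scaling, where 49.2% of all genes were.

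The nearest listed gene to A1cf had a positive fold change. Asah2, the neutral ceramidase of the brush border, 30.2 kb away on the minus strand, had 162 and 191 FPKM in the libraries labelled knockout and 91.5 and 73.1 FPKM in the controls (1.09, SE 0.16, limma adjusted p = 0.0669). It was the only gene tested that starts within 500 kb of A1cf. Sgms1, a sphingomyelin synthase gene next in line, gave -0.40. On the far side the nearest listed genes were Cstf2t at -0.06 and Mbl2, a mannose-binding lectin gene at 1629 kb, with 19.1 and 30.1 FPKM in the libraries labelled knockout and 1.53 and 3.68 FPKM in the controls (2.86, SE 0.41, limma adjusted p = 0.0819).

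Around Apobec1, the nearest listed gene was a transcribed pseudogene 120 kb away, a predicted gene that was counted only. Next came Foxj2 at 217 kb, Phc1 at 238 kb and C3ar1 at 244 kb, with log2 fold changes of -0.13, -0.42 and 0.06. Within the window 2 of 7 genes were positive (4 with median-ratio scaling). Around Apobec3, Cbx6 gave -0.41, Dnal4 -0.16 and the ribosomal protein gene Rpl3 -0.26, and 2 of 20 genes within the window were positive (8 with median-ratio scaling). The overlapping Cbx7 had 1.16 and 1.08 FPKM in the libraries labelled knockout and 0.952 and 1.32 FPKM in the controls (-0.01), without the high value of control replicate 1 that Apobec3 had. Limma called 0 of the 32 genes within the 4 windows (0 with voom; 3 at an unadjusted p under 0.05, where 26.6% of all genes were).

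**Figure D3:**
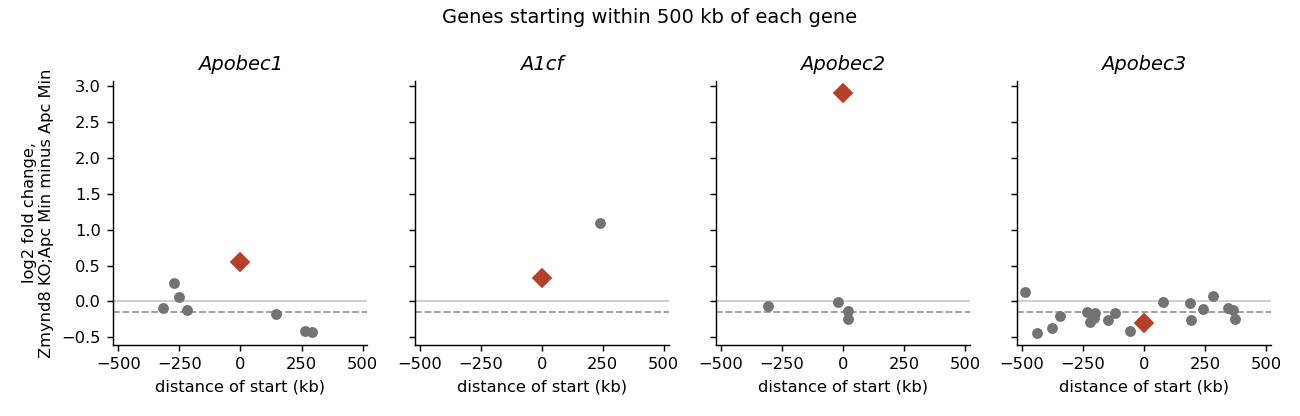
Log2 fold change (vertical axis) of Apobec1, A1cf, Apobec2 and Apobec3 (red diamonds at 0 kb) and of the genes tested that start within 500 kb (grey points) by distance between start sites along the gene's own direction; the dashed line is the median of all genes, -0.15. Apobec2 lies at 2.90 and its 4 neighbours between -0.24 and -0.0048, while the single neighbour of A1cf, Asah2, lies at 1.09.

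Genes with a like pattern were found by the Euclidean distance between log2(FPKM + 1) values in the 4 libraries, each gene centred on its own mean. Left out of the ranking were the 4 genes themselves, predicted genes named Gm or Rik, and immunoglobulin and T cell receptor segments. The nearest genes below are the nearest of those that remained. With 4 libraries such likeness is a description that mostly follows the size of the group difference, and it says nothing of function. Nearest to Apobec2 was Hsd17b6, a steroid and retinol dehydrogenase gene, at a distance of 0.112, with 37.0 and 56.2 FPKM in the libraries labelled knockout and 6.90 and 4.32 FPKM in the controls. The next were Adh4, an alcohol dehydrogenase, at 0.215, the apolipoprotein Apoc3 at 0.219, the cytochrome P450 Cyp3a11 at 0.252 and the ascorbate transporter Slc23a1 at 0.304. In all 5, as in Apobec2, replicate 2 was the higher of the libraries labelled knockout and the lower of the controls. The genes were picked by these same values, so nothing is read from that shared order.

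Among the 6 pairs of the 4 genes, Apobec1 and A1cf had the smallest distance, 0.263. This ranking covers the 4 genes only. The 5 genes nearest to Apobec1 and the 5 nearest to A1cf all lay much closer to them than that. Nearest to Apobec1 were Pik3c2a, a lipid kinase, at 0.0264, the choline phosphotransferase Chpt1 at 0.0354, Cd302 at 0.0369 and Tmc7 at 0.0411, followed by an entry with no gene symbol. Nearest to A1cf were Hccs, which attaches haem to cytochrome c, at 0.0225, Fnip1 at 0.0285, Ptpn21 at 0.033, Asb13 at 0.0342 and Decr1, a mitochondrial enzyme of unsaturated fatty acid oxidation, at 0.037. Apobec3 was most like Mrps6, a mitochondrial ribosomal protein gene, at 0.00946, then Slc31a2, Brd3, Cul4b and Dck, the deoxycytidine kinase, all within 0.0194. In these 5, as in Apobec3, control replicate 1 was the highest library, which again follows from how they were picked.

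**Figure D4:**
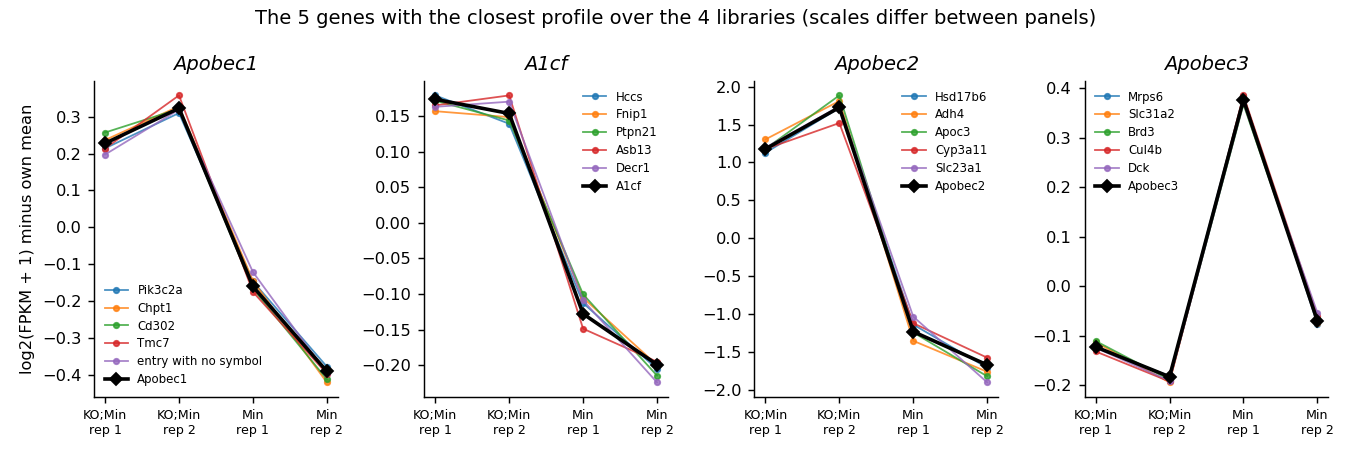
Centred log2(FPKM + 1) (vertical axis, a scale for each panel) in the 2 libraries labelled knockout and then the 2 Apc Min controls (horizontal axis). Shown are each of the 4 genes (black) and the 5 genes nearest to it among those ranked (colours), picked by likeness in these same libraries. Apobec1, A1cf and Apobec2 and their nearest genes separate the groups, while Apobec3 and its nearest genes separate control replicate 1 from the other 3 libraries.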

How the data were processed

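RNA of small-intestinal crypts was sequenced with an NEBNext Ultra kit and paired ends on a HiSeq3000, per the labels. HISAT2 and mm10 are named in the submitters' processing notes; the counting program, its annotation and its handling of strand are not stated there. The authors deposited 1 FPKM value per gene and library, reads divided by a gene length and a library total, though the file header gives no unit. That reading rests on the values, since all 13359 genes gave whole reads within 0.002 once a length and 1 total per library were found. The log2 fold changes, p-values and q-values deposited by the authors come from a test they do not name. Of 13527 entries, 168 exact repeats were dropped. Per-sample columns left unused numbered 0, and 4 ChIP-seq libraries were not analysed here.

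The 12948 genes that reached 1 FPKM in 2 or more libraries were tested by limma (version 3.58.1, R 4.3.3) on log2(FPKM + 1), with trend and robust eBayes, genotype as the only term and Benjamini-Hochberg adjustment at 0.05; the fit was also tried on simulated data. The 4 genes and all lists were chosen with earlier results of these data known, and lists come from textbook knowledge. Named beside the 4 genes were list members past the threshold (or the 3 of smallest p; some of these are given by count only), Apob, Mttp, Rbm47, Syncrip, Adar and Ung, the nearest 2 genes on each side, and the 5 most alike genes. Epcam, Ckm and Ptprc (as defining markers) and Lpcat3 were named after their values were seen. So were Lyz1, Defa24, Apoa1, Fabp2, Anpep, Tat and Alb, as large parts of sums. Predicted genes were counted only, and those named Gm or Rik were left out of the ranking of alike genes. With 2 libraries against 2, an exact permutation test of 1 gene cannot go below p = 0.333.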

Additional observations from a re-analysis of the deposited data

How the results depend on the processing

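All 4 genes kept the sign of their fold change in each of 12 alternatives. The fold changes moved by more than the spread between replicates with median-ratio scaling (Apobec1 0.71, A1cf 0.50), with quantile normalization (Apobec1 0.69, A1cf 0.42) and for Apobec2 with a pseudocount of 0.1 (3.37) or voom on the recovered reads (3.44, an alternative chosen after seeing the data). With 1 library left out they ran from 0.44 to 0.67 for Apobec1, from 2.63 to 3.18 for Apobec2, from -0.53 to -0.08 for Apobec3 and from 0.29 to 0.36 for A1cf.

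The log2 difference of the A1cf to Apobec1 ratio was -0.25 and ran from -0.34 to -0.16 with 1 library left out. Counts of calls depended on the settings. In place of 94 genes over the table, with 77 higher and 17 lower and 5 of them on the lists, there were 1, 1, 0 and 0 without a filter on low values, 2, 2, 0 and 0 at a mean of at least 5 FPKM, and 50, 41, 9 and 3 without the trend. Voom on the recovered reads gave 150, 123, 27 and 11. Median-ratio scaling left 4 lower genes and 3 on the lists, and quantile normalization 5 lower genes. With 1 library left out the counts ran from 0 to 616 in all, from 0 to 230 higher, from 0 to 386 lower and from 0 to 23 on the lists; the lone library of a group is then assumed to vary like the other group.

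The replicate block left 0 genes called, 0 higher, 0 lower and 0 on the lists, and left the fold changes of the 4 genes as they were. Deviations of the same-numbered libraries from their group means correlated at 0.0452 over 12948 genes and the labels do not tie the numbers together, so the numbers were not taken to pair the pools. Medians changed sign for lymphocyte markers with median-ratio scaling (0.06) and quantile normalization (0.07), for myeloid markers with the same (0.13 and 0.07), and with 1 library left out for lymphocyte (-0.26 to 0.15), myeloid (-0.20 to 0.01) and smooth muscle markers (-0.78 to 0.24). The cause of these changes was not tested. With 2 pools a group the spread behind every value is itself poorly known, and Apobec2 rests on 93 and 135 reads in the controls.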
